A study of Mus musculus with 2 samples.

Results

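Members of the Ifi200 and Schlafen families, a pair of interferon-inducible gene groups that each lie in a cluster on 1 chromosome, were examined in RNA from the nucleus of mouse macrophages. The 10 members were chosen by symbol from the 55536 genes of the deposited gene tables: Ifi203, Ifi204, Ifi207, Ifi209 and Ifi211 of the Ifi200 family, and Slfn1, Slfn2, Slfn4, Slfn5 and Slfn8 of the Schlafen family. The cells were bone marrow-derived macrophages of strain C57BL/6J, which are macrophages grown in culture from marrow, treated with lipid A at 100 ng/ml for 50 minutes. Lipid A is the part of bacterial lipopolysaccharide that activates the receptor TLR4. Total RNA of the nucleoplasmic fraction was depleted of ribosomal RNA before sequencing; other labels of the same libraries give the fraction as the nucleus. The series held 1 group of 2 libraries, labelled as biological replicates of the same donor entry, made from 500 ng RNA (replicate 1) and 1 µg (replicate 2). Untreated macrophages were not analysed here, so the values below are levels 50 minutes after lipid A and none is a response to it.

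Ifi200 proteins share a DNA-binding HIN domain, most of them together with a pyrin domain that binds other pyrin domains, and the family is best known for Aim2, which senses DNA in the cytosol and starts an inflammasome. Schlafen proteins are divided into short, intermediate and long forms, of which only the long ones carry a helicase-like region, and they are known for effects on cell quiescence, on tRNA and on virus replication. In macrophages, genes of both families are classic targets of type I interferon. The interferon receptor is known to act on such targets through a DNA element in promoters, the interferon-stimulated response element.

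The gene tables held 10342882 expected counts in gene rows in replicate 1 and 20495545 in replicate 2, so a count of 0 allows up to 0.290 and 0.146 CPM, counts per 1000000 counts of gene rows. Levels are given in TPM, transcripts per 1000000, a unit that is per length and so can be compared between genes. The cells carried the markers of their label: each library had all 10 macrophage genes checked at no less than 10 TPM, among them Lyz2 at 1461 and 1507 TPM. Of 32 markers of lymphoid, granulocytic, dendritic, erythroid and stromal cells, 2 reached 1 TPM in both libraries and 9 had no count in either, and their summed level was 9.28 TPM in replicate 1 and 8.17 TPM in replicate 2. The 7 markers of T and NK cells, the cells in which Slfn1 was first studied, summed to 0.48 and 0.50 TPM, and 4 of them had no count. In bulk RNA, fewer cells with a transcript and less of it per cell cannot be told apart.

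Promoter windows were compared first, because interferon control is the property that these genes are known to share. RefSeq windows of 300 bases (250 before to 50 after an annotated start, build GRCm38.p6) were found for 9 members, all but Ifi204. The interferon-stimulated response element, searched as GAAANNGAAA on both strands, was present in 5 of the 9: Ifi203, Ifi207, Ifi211, Slfn5 and Slfn8. The windows of Ifi209, Slfn1, Slfn2 and Slfn4 held no match to these letters. The element was also in 7 of 12 other genes of the families with a window, against 3.99% of the 27025 genes that have one. The motifs were chosen after the promoter sequences had been seen, so this contrast is description and not a test. The stretches of 50 bases around these matches are shown on the strand of the gene, 5′ to 3′, with the matched element in capitals; none overlapped an exon of the M21 annotation.
Ifi203 (chr1:173942498-173942547, minus strand): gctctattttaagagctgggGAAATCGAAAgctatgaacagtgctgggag
Ifi207 (chr1:173741821-173741870, minus strand): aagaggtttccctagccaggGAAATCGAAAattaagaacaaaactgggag
Ifi211 (chr1:173913054-173913103, minus strand): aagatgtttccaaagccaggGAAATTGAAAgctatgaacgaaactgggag
Slfn5 (chr11:82951927-82951976, plus strand): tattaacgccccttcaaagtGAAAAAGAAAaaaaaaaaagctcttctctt
Slfn8 (chr11:83020829-83020878, minus strand): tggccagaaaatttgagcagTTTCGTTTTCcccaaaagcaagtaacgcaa

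In the Ifi200 members the element lay close to the start, beginning 35 bases before it in Ifi203, 41 in Ifi207 and 37 in Ifi211, each time on the strand of the gene. In Slfn5 it began 155 bases before the start, and in Slfn8 it lay on the opposite strand, 48 or 136 bases before its 2 annotated starts. These are RefSeq starts. In the M21 annotation Ifi203-209 begins farther upstream, at 173942672, and so does Slfn5-204, at 82951349. The Ifi203 and Slfn5 sites thus lie within the M21 spans of their genes, outside exons. The flanks of Ifi207 and Ifi211 were alike as well, with 42 of the 50 bases equal, and Ifi211 shared 46 of 50 with Ifi205 of the same cluster. Ifi203 shared 32 of 50 with Ifi207 but all 50 with a stretch of Mndal. The Mndal stretch lies elsewhere on chromosome 1, at 173880194 to 173880243, so it is a separate copy and not the same site. In M21, however, the Mndal gene spans 173849126 to 173942491 on the minus strand. Its upstream end thus lies next to the Ifi203 site, which begins at 173942498. That span also covers Ifi211 and most of Ifi203 on the same strand. The exact core GAAATCGAAA of Ifi203 and Ifi207 was found in 16 of the 27025 genes, and 7 of those 16 were Ifi200 family genes, of 12 with a window. Slfn8 and Slfn9 had 37 of 50 bases equal around the same opposite-strand core. The gamma-activated site TTCNNNGAA, an element known from genes induced by interferon gamma, was found in none of the 9 members and in 9.55% of all genes. The NF-kB motif was found in 1 member, Slfn1, 43 bases before the start, and in 5.14% of all genes. These matches describe the letters of the windows, and windows of neighbouring family genes share their origin, so they are not independent of each other.

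**Figure D1:**
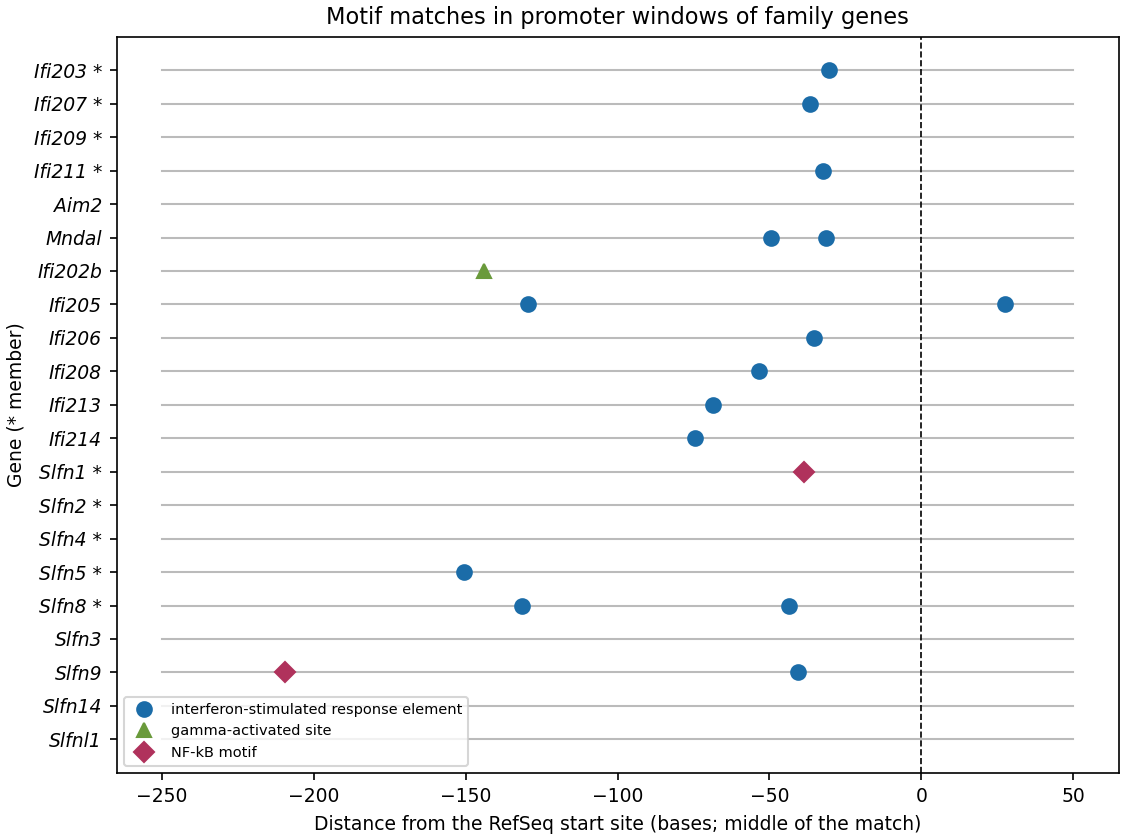
Position of motif matches in the promoter windows of 21 Ifi200 and Schlafen genes (rows, * marks the 9 members with a window); the x axis is the distance of the middle of a match from the RefSeq start in bases, both strands. Interferon-stimulated response elements (circles) lie before the start in Ifi203, Ifi207, Ifi211, Slfn5 and Slfn8, and Slfn1 has only an NF-kB match (diamond); Slfn8 has 2 circles because its 1 site is measured from 2 starts.

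Of the 10 members, 9 reached 1 TPM in each library and 7 reached 10 TPM, where 38.7% of the 22015 protein-coding genes of the nuclear genome reached 1 TPM in each and 13.2% reached 10 TPM. Their median position among those genes was the 98.0th percentile (98.3 in replicate 1 and 97.7 in replicate 2). The members were chosen with earlier results of these data known, so this comparison with all genes is description and not a test. Together the members held 0.406% of all counts in gene rows in replicate 1 and 0.325% in replicate 2.

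Ifi203 (ENSMUSG00000039997.16, mm10 chromosome 1, 173920407 to 173942672, minus strand), which encodes a nuclear HIN-domain protein, was the highest member. Its level was 412 TPM in replicate 1 and 223 TPM in replicate 2, from 13116 and 21154 expected counts, or 318 ± 134 TPM (SD, n = 2). It was first of the 10 in both libraries and held 26.5% of the members' summed TPM, 26.2% and 26.8% in the libraries. Ifi204 (ENSMUSG00000073489.6, 173747293 to 173766943, minus strand), which encodes p204, a DNA sensor related to human IFI16, stood at 236 and 117 TPM, from 4784 and 7192 counts. Its mean was 176 ± 84.0 TPM, and it held rank 3 in each library.

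Ifi211 (ENSMUSG00000026536.9, 173896345 to 173913046, minus strand) was at 210 and 94.9 TPM, from 3693 and 5144 counts. Ifi207 (ENSMUSG00000073490.11, 173723427 to 173741747, minus strand), which encodes a long pyrin and HIN protein, was at 215 and 81.6 TPM, from 7735 and 8953 counts. The pair changed places between the libraries, Ifi207 being higher in replicate 1 and Ifi211 in replicate 2, and their means were 148 ± 94.3 TPM for Ifi207 and 152 ± 81.4 TPM for Ifi211. Ifi209 (ENSMUSG00000043263.13, 173630917 to 173647928, plus strand) was far below the other Ifi200 members, at 11.5 and 6.95 TPM from 402 and 737 counts, or 9.21 ± 3.20 TPM. It is the only Ifi200 member on the plus strand, and both of its values lay under those of the other 4.

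Slfn2 (ENSMUSG00000072620.3, chromosome 11, 83065112 to 83070678, plus strand), a short Schlafen required for quiescence of T cells and monocytes, led its family at 328 and 220 TPM, from 5328 and 11025 counts. Its mean was 274 ± 76.6 TPM, and it alone held 67.3% of the TPM of the 5 Schlafen members in replicate 1 and 71.1% in replicate 2. By counts, which are not per length, its share was 43.6% and 47.1%. The long Schlafen Slfn5 (ENSMUSG00000054404.13, 82951349 to 82964840, plus strand), whose protein is found in the nucleus, was at 79.5 and 45.6 TPM, from 3958 and 7665 counts. Slfn8 (ENSMUSG00000035208.16, 83002158 to 83020810, minus strand), another long Schlafen, was at 73.7 and 41.1 TPM, from 2709 and 4405 counts. Slfn5 was above Slfn8 in both libraries, with means of 62.6 ± 24.0 and 57.4 ± 23.0 TPM, and both were below Slfn2 in each library.

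Slfn4 (ENSMUSG00000000204.16, 83175186 to 83190216, plus strand), a Schlafen of the myeloid lineage, was low, at 5.55 and 2.45 TPM, from 227 and 287 counts. Slfn1 (ENSMUSG00000078763.2, 83116849 to 83122670, plus strand), the founding short Schlafen, described as a brake on T-lineage growth, was near the limit of these libraries at 0.54 and 0.40 TPM. It rested on 10 counts in replicate 1, or 0.967 CPM with a 95% Poisson interval of 0.464 to 1.78, and on 23 counts in replicate 2, or 1.12 CPM with an interval of 0.711 to 1.68. These intervals overlap and cover counting error only. So the Schlafen members ran from the 99.5th percentile of protein-coding genes (Slfn2) to the 52.9th (Slfn1), within 1 cluster on chromosome 11.

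**Figure D2:**
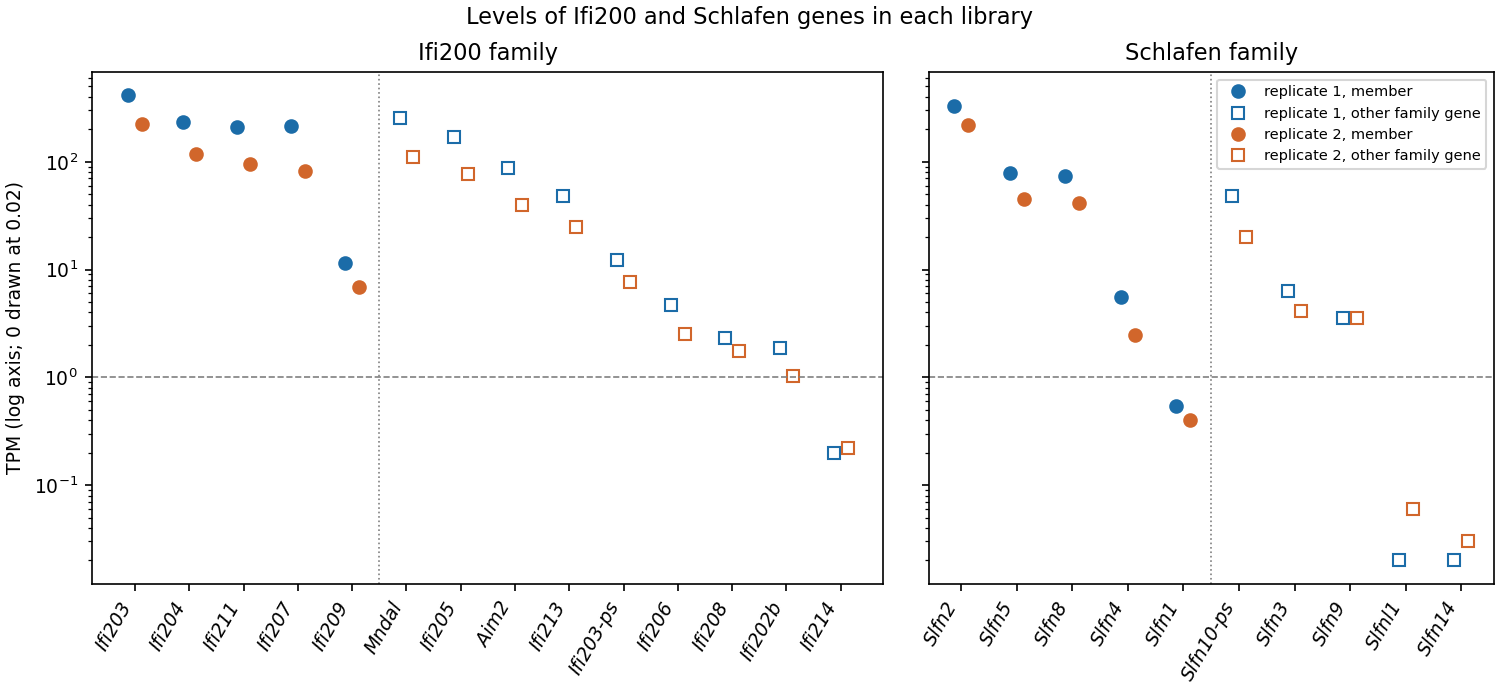
TPM (log axis) of all 24 annotated Ifi200 and Schlafen genes in each library: filled circles are the 10 members, open squares the other family genes, blue replicate 1 and orange replicate 2; the dashed line marks 1 TPM. Ifi203 and Slfn2 are the highest members, and Slfn1 is the only member under the line.

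To order the members without the common difference in TPM between the libraries, each level was taken as log2 TPM minus its median over genes whose mean TPM was 1 or higher. The order was Ifi203 at 5.78 ± 0.17 (SD, n = 2), Slfn2 at 5.61 ± 0.05, Ifi204 at 4.91 ± 0.26, Ifi211 at 4.68 ± 0.35, Ifi207 at 4.59 ± 0.53, Slfn5 at 3.45 ± 0.11, Slfn8 at 3.32 ± 0.14, Ifi209 at 0.69 ± 0.05, Slfn4 at -0.58 ± 0.38 and Slfn1 at -3.57 ± 0.15. The ranges of the libraries overlapped between Ifi204 and Ifi211, between Ifi211 and Ifi207 and between Slfn5 and Slfn8. Within libraries, Ifi204 was above Ifi211 by 0.17 in replicate 1 and 0.30 in replicate 2, and Slfn5 above Slfn8 by 0.11 and 0.15, so both pairs kept their order. Ifi211 minus Ifi207 was -0.03 and 0.22, so that pair did not. The other neighbours in the order did not overlap. The first pair was close all the same: in replicate 2 the deposited credibility interval of Ifi203, 213 to 220 TPM, met that of Slfn2, 209 to 217 TPM. The 10 ranks were the same in the other deposited quantification. By mean CPM, which is not per length, Ifi207 had rank 2, Slfn2 rank 3, Ifi204 rank 4, Slfn5 rank 5 and Ifi211 rank 6, but in replicate 2 Slfn2 was above Ifi207, at 538 against 437 CPM.

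The Ifi200 members as a group lay above the Schlafen members. Their median was 215 TPM in replicate 1 and 94.9 TPM in replicate 2, against 73.7 and 41.1 TPM. On a scale of log2(TPM + 1) the medians differed by 1.34 ± 0.24 (SD, n = 2). The lists overlapped gene by gene, since Slfn2 exceeded 4 of the 5 Ifi200 members in both libraries. The size of the difference depends on the genes counted and on the scale: it was 3.09 over all 24 annotated genes of both families and 0.76 in CPM. No test was made, because genes are not replicates, there is 1 group and the members were chosen with earlier results known.

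The replicates differed in scale: replicate 2 over replicate 1, the log2 ratio of TPM was -0.69 for the median gene, and the values below are relative to it. Slfn1, with a mean TPM under 1, was left out. All 9 other members lay within 2-fold of the median ratio, where 9.90% of 11380 genes lay past it. Ifi207 was farthest at -0.71, followed by Slfn4 at -0.49, Ifi211 at -0.45 and Ifi204 at -0.32. Ifi203, Slfn8, Slfn5 and Ifi209 were at -0.19, -0.15, -0.11 and -0.03, and Slfn2 was the one member above 0, at 0.11. Thus 8 of 9 lay below the median ratio, beside 47.4% of 9147 protein-coding genes, but the count was 6 with TMM scaling, 7 with DESeq2 size factors and 4 in the other quantification, where 35.8% of protein-coding genes lay below. Ifi207, Slfn4, Ifi211 and Ifi204 were below 0 in each of these, and the part of RNA input and depth, which also differ between the replicates, was not tested.

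**Figure D3:**
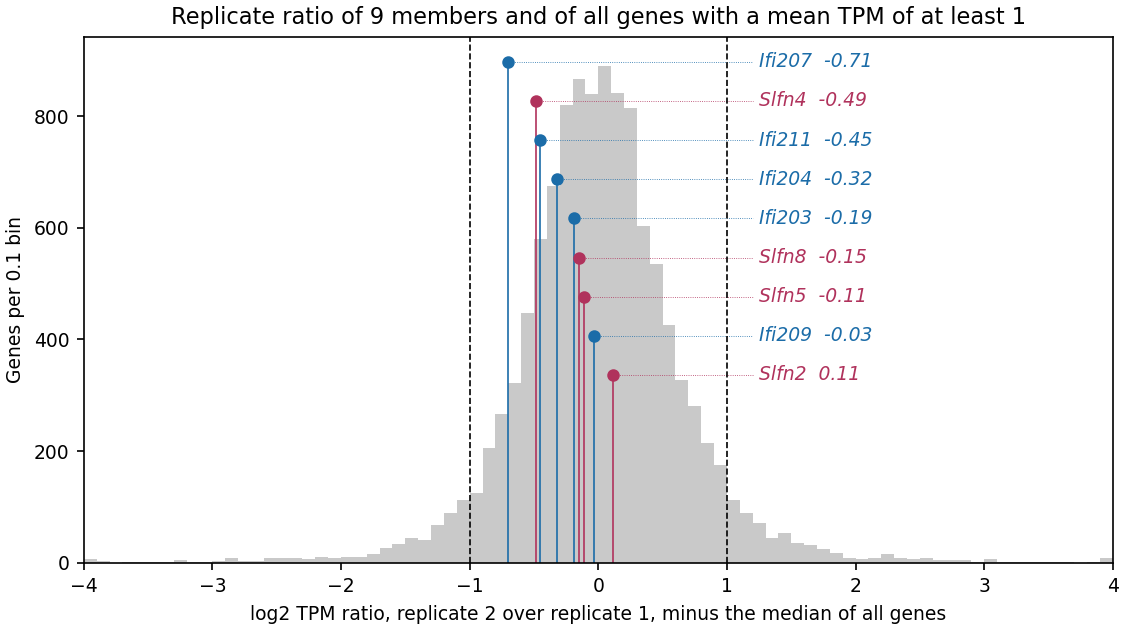
Histogram of log2 ratios of TPM (replicate 2 over replicate 1), minus the median, for 11380 genes whose mean TPM was 1 or higher (grey, genes per bin, ratios past 4 drawn in the end bins), with 9 members as lines (blue Ifi200, red Schlafen); dashed lines mark 2-fold. All 9 lie between the dashed lines, from Ifi207 at -0.71 to Slfn2 at 0.11.

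The transcript tables show which isoforms carried these levels. In a nuclear fraction RNA still being spliced is present, and a quantification over annotated transcripts can only place its reads on the isoforms in the annotation. Ifi211, Slfn1 and Slfn2 have 1 annotated isoform each. Ifi203 and Ifi204 are the members with an annotated retained-intron isoform. Of Ifi203 TPM, 32.6% in replicate 1 and 33.7% in replicate 2 was on Ifi203-207, an isoform of 5 exons whose last exon covers intron 4 of Ifi203-201 (1083 bases, chromosome 1, 173933927 to 173935009). Ifi203-201 itself held 0% and 1.78%, and against Ifi203-202, the coding isoform with the most TPM, that exon reaches 1805 bases into an intron of 7787 bases. The coding isoforms Ifi203-202, with 36.7% and 31.4%, and Ifi203-205, with 20.8% and 28.1%, held most of the rest. Of Ifi204 TPM, 42.3% and 46.3% was on Ifi204-202, whose 2 exons end 1241 bases into the 1272-base intron 2 of Ifi204-201 (173760327 to 173761598). The quantification from the reads put still more on both, 38.6% and 38.1% for Ifi203-207 and 58.4% and 56.7% for Ifi204-202. For both genes the share was alike in the 2 libraries and above 30% in each quantification.

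In all, 4 members have isoforms that are not annotated as protein-coding. Such isoforms held 35.8% and 37.2% of Ifi203, 42.3% and 46.3% of Ifi204, 5.41% and 6.91% of Ifi209, where the isoform is a target of nonsense-mediated decay, and 0% and 0.373% of Slfn5. The median of the 4 was 20.6% in replicate 1 and 22.0% in replicate 2, against 30.95% and 33.7% over 7677 protein-coding genes with such isoforms. More than 30% in both libraries was reached by 2 of the 4 members and by 44.8% of the 7677 genes, so shares like those of Ifi203 and Ifi204 were common. In the quantification from the reads the median of the 4 members was 35.7% and 43.0%, with Ifi209-202 at 28.0% and 42.5%, and the median of the 7677 genes was higher too, at 46.2% and 44.6%.

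Among coding isoforms the quantifications placed reads differently. Ifi207-201 held 100% of Ifi207 in both libraries in the first and 84.0% and 83.9% in the other, where Ifi207-202 took 16.0% and 16.1%. For Slfn8, isoform 201 was the largest in both, but Slfn8-206 had 467 and 592 counts with posterior SDs of 95.3 and 156 in the first and no counts in the other. Slfn5-201 held 68.5% and 81.5% of Slfn5 in the first and 54.1% and 52.1% in the other. Slfn4 was split between Slfn4-201, with 63.0% and 47.2%, and Slfn4-202, with 37.0% and 43.1%. The posterior SDs of 27.3 and 35.6 counts on the 147 and 148 counts of Slfn4-201 show how loosely that split is held. The posterior SD of the Slfn4 gene count was 0.

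**Figure D4:**
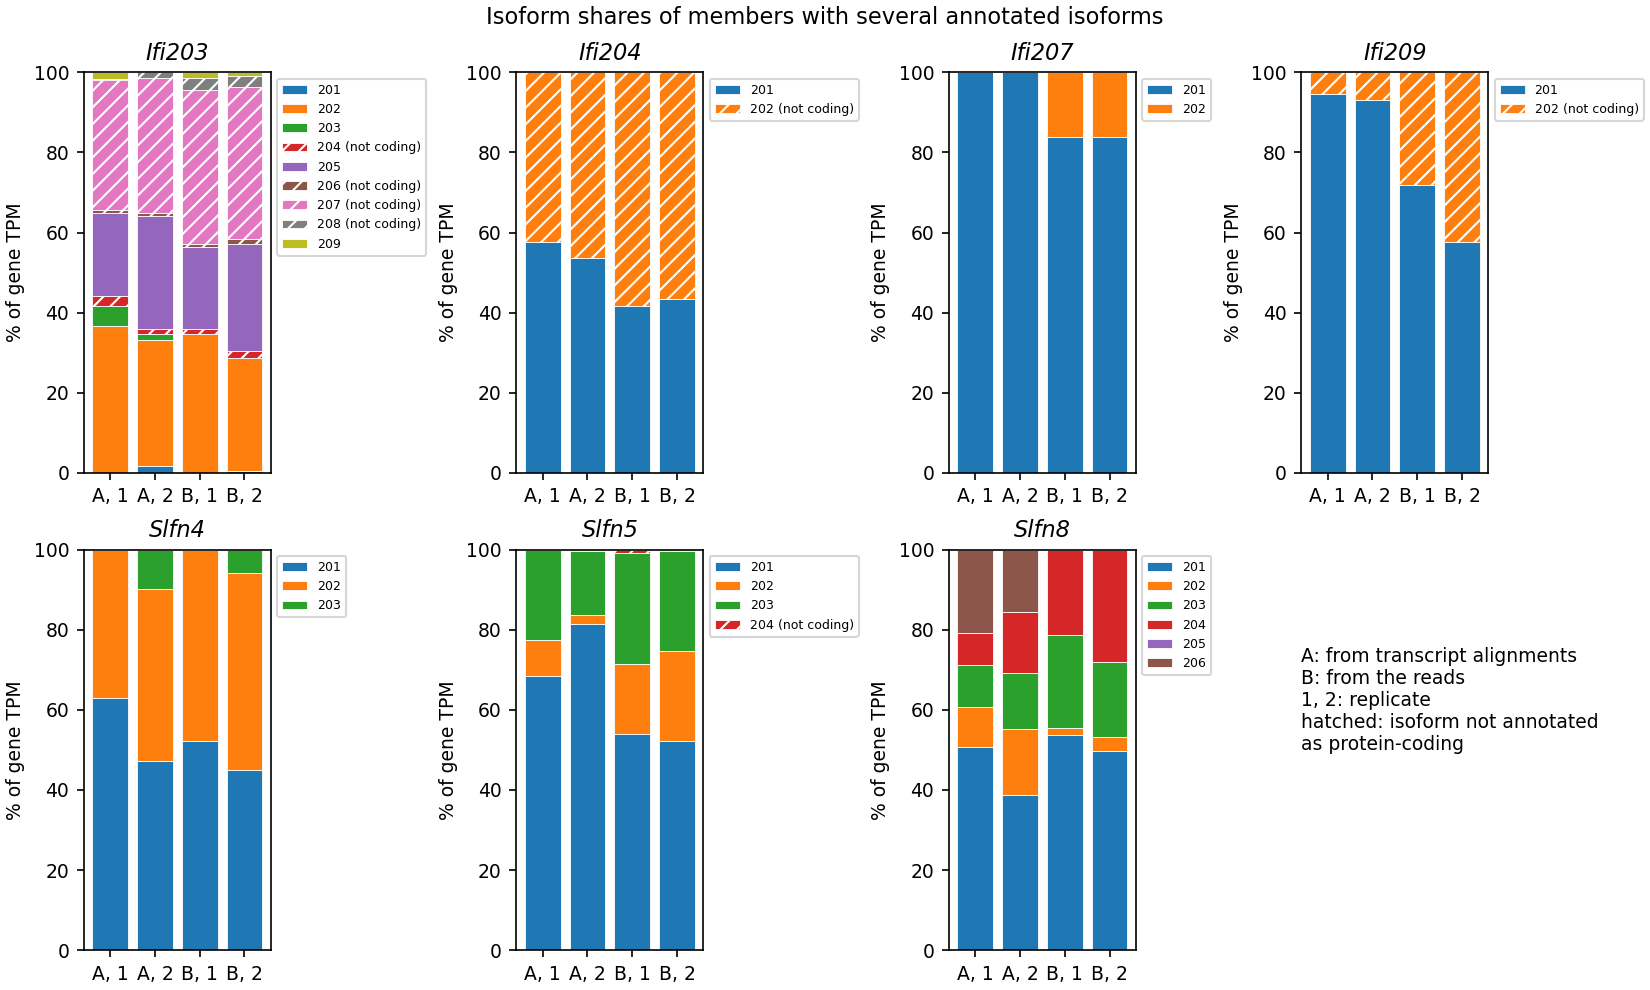
Share of each gene's TPM on its annotated isoforms (stacked bars, % of gene TPM, numbers as in the isoform names) for the 7 members with several isoforms, from transcript alignments (A) and from the reads (B), in replicates 1 and 2; hatched isoforms are not annotated as protein-coding. Ifi203-207 and Ifi204-202 form the large hatched shares, and Slfn8-206 is present only in A.

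Both families grew by gene duplication, so reads can match several genes. For each gene, the words of 75 bases in its annotated transcripts were looked up in all other M21 transcripts on both strands; the read length is not given in the sources used here, and fewer words are unique when they are shorter. Ifi211 was the least distinct member: 36.4% of its words occurred in no other gene, 40.6% occurred in Ifi205, 23.0% in Ifi204 and 10.4% in Mndal. Ifi209 followed with 76.9% unique words, the other 23.1% being shared with Ifi214, and Ifi204 with 86.8%. Slfn5 (91.8%), Slfn8 (93.0%), Ifi203 (94.3%), Slfn4 (96.9%), Ifi207 (97.2%) and Slfn2 (98.3%) shared little, and Slfn1 shared none. The deposited posterior SD of the gene count was 29.5 and 34.4 counts for Ifi211, 13.3 and 19.1 for Ifi204, and at most 3.82 for the other 8. In counts, that SD did not follow the order of unique words throughout, being 0.33 and 0.83 for Ifi209, which had only 402 and 737 counts. As a percent of the gene count it was 0.80% and 0.67% for Ifi211, 0.278% and 0.265% for Ifi204 and 0.082% and 0.113% for Ifi209. Every other member was at 0.0803% or lower. Ifi209 was still below Ifi204, although fewer of its words were unique.

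**Figure D5:**
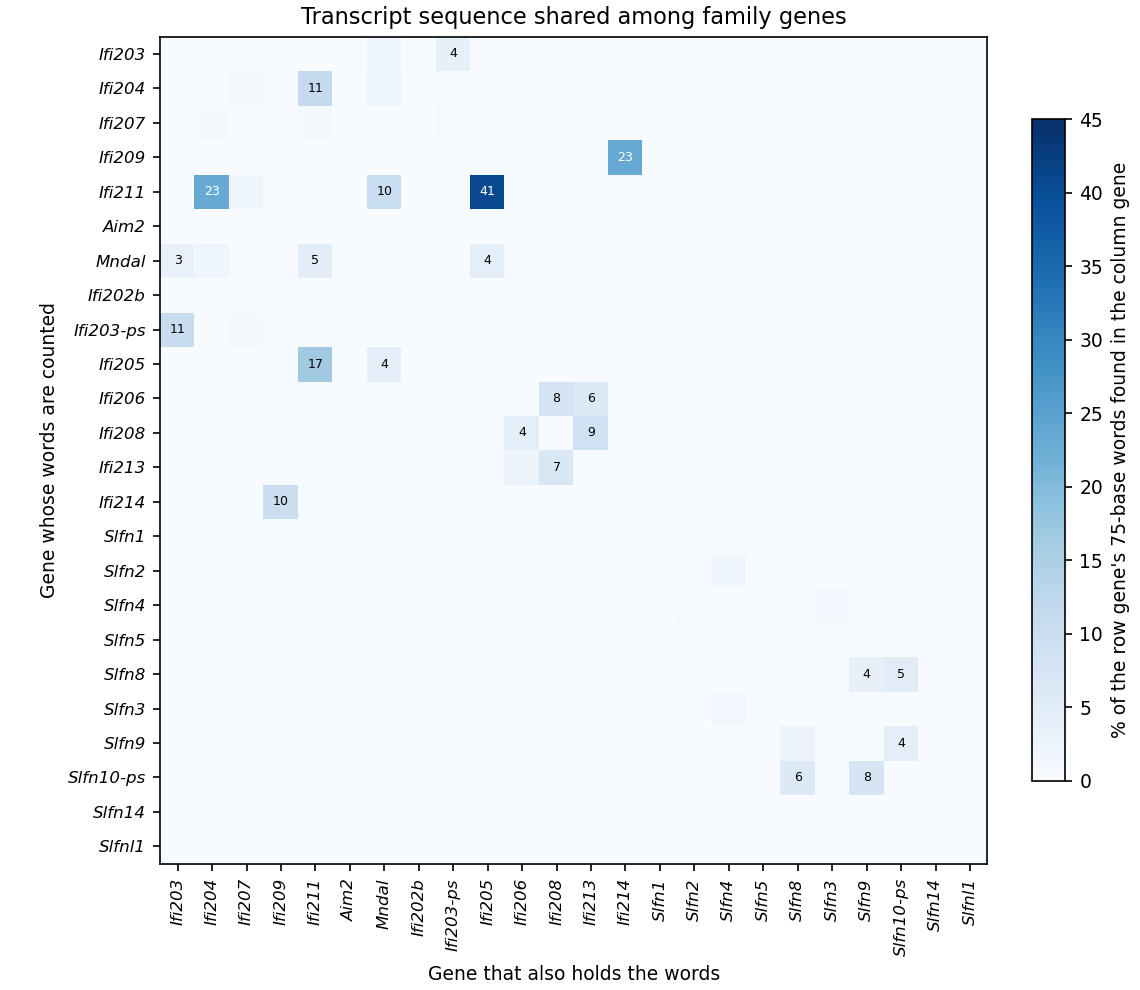
Percent of the 75-base words of each family gene (rows) that also occur in another family gene (columns), printed where at least 3%; darker blue is more. The darkest cell is Ifi211 in Ifi205 (40.6%), and no Ifi200 gene shares a word with a Schlafen gene.

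How the tables divided the pairs that share sequence was then compared. Ifi211 received 48.1% and 47.5% of the counts of the pair Ifi211 and Ifi205, and 39.7% and 41.7% in the quantification from the reads. Ifi209 received 98.0% and 96.2% of the pair Ifi209 and Ifi214 in the first, but 56.0% and 64.0% in the other. For Ifi203 with the pseudogene Ifi203-ps the shares were alike, 97.6% and 97.2% against 97.6% and 97.5%. The shares were alike too for Slfn8 with Slfn10-ps, 61.1% and 65.5% against 60.7% and 65.2%. Slfn4 received 63.2% and 52.1% of the pair Slfn4 and Slfn3 in the first and 47.0% and 42.2% in the other, so the larger partner changed. Slfn4 shared only 1.12% of its words with Slfn3, and both genes had more counts from the reads. In replicate 1 these were 318 against 227 for Slfn4 and 359 against 132 for Slfn3, so Slfn4 did not lose counts to Slfn3. Ifi204 received 56.4% and 58.3% of the pair Ifi204 and Ifi211, against 61.8% and 61.3%. The member counts themselves did not stand out. The second count was 1.40 to 2.07 times the first in replicate 1 (median 1.67) and 1.15 to 1.49 times in replicate 2 (median 1.29). Beside these, the median was 1.84 over 10866 genes in replicate 1 and 1.34 over 11159 genes in replicate 2. Only genes whose mean TPM was 1 or higher entered these 2 medians.

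The spans of antisense genes overlap those of Slfn5 and Slfn2, and strand handling is not given. Slfn5 shared 6.59% of its 75-base words with Slfn5os, so reads on those words cannot be assigned to a strand with certainty. Slfn2 shared no 75-base word with Gm20234. Slfn5os, antisense to Slfn5, had 0 and 9.60 counts, and 25.2 and 67.8 in the quantification from the reads. Gm20234, antisense to Slfn2, had 166 and 604 counts, and 3174 and 3970 in the other. Even the larger values were below the 8894 and 13425 counts of Slfn2 in that quantification.

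The members are 5 of 14 annotated Ifi200 genes and 5 of 10 annotated Schlafen genes. The Ifi200 members held 65.0% and 66.3% of their family's TPM and the Schlafen members 89.4% and 91.8% of theirs. Of the 9 other Ifi200 genes, Mndal was the highest at 254 and 111 TPM, followed by Ifi205 at 171 and 77.5 TPM, both above Ifi209 in each library. Mndal was also above Ifi207 and Ifi211 in both libraries, and above Ifi204 in replicate 1. The inflammasome sensor Aim2 was at 87.8 and 39.5 TPM, and Ifi213 at 47.9 and 24.7 TPM. Ifi203-ps, Ifi206, Ifi208 and Ifi202b were between 12.4 and 1.02 TPM, and Ifi214 alone stayed under 1 TPM, at 0.20 and 0.22. Of the 5 other Schlafen genes, the pseudogene Slfn10-ps was at 48.1 and 19.9 TPM, above Slfn4 and Slfn1. Slfn3 was at 6.39 and 4.10 TPM and Slfn9 at 3.56 and 3.52 TPM. Slfn14 and Slfnl1, the latter on chromosome 4, had 0 counts in replicate 1 and 3 in replicate 2 each. In all, 13 of 14 Ifi200 genes and 7 of 10 Schlafen genes reached 1 TPM in each library.

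Transcripts of genes that act in TLR4 and interferon signalling were counted in the same libraries, from lists that were also chosen with earlier results known. Of 20 listed genes of TLR4, interferon induction and interferon receptor signalling, all 20 reached 1 TPM in each library and 16 reached 10 TPM, beside 38.7% and 13.2% of protein-coding genes, with medians of 45.3 and 34.9 TPM. The TLR4 co-receptor gene Cd14 was the highest at 575 and 391 TPM, then the factor Irf1 at 262 and 296 TPM and the kinase Ikbke at 239 and 255 TPM. Ticam1, the adaptor between TLR4 and interferon induction, at 11.8 and 8.65 TPM, and Traf3, which acts below it, at 5.59 and 4.83 TPM, were the lowest.

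All 8 annotated genes on a list of nucleic acid sensors and inflammasome partners reached 1 TPM in each library. The RNA sensor gene Ifih1 was at 371 and 187 TPM, between Ifi203 and Ifi204 in each library. Ddx58, another RNA sensor gene, was at 36.8 and 25.8 TPM and the DNase gene Trex1 at 22.5 and 24.5 TPM. Tmem173, which encodes STING, was at 4.58 and 3.31 TPM, and Pycard, which encodes the adaptor that joins Aim2 to caspase-1, at 2.76 and 2.60 TPM. Tmem173 and Pycard were thus lower in nuclear RNA than each Ifi200 member, Ifi209 included.

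A list of 20 other interferon-induced genes, also all reaching 1 TPM in each library, had medians of 51.5 and 24.8 TPM. Rsad2, the gene of the antiviral enzyme viperin, was the highest at 524 and 245 TPM, then Gbp5 at 289 and 174 TPM and Oasl2 at 237 and 121 TPM. Usp18, at 5.88 and 5.08 TPM, and Ifi44, at 4.75 and 3.76 TPM, were the lowest. The 10 members had medians of 145 and 63.6 TPM, and Slfn1 at 0.54 and 0.40 TPM was below every gene of that list.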

How the data were processed

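Members and gene lists were chosen with earlier results of these data known, and the motifs after the promoter sequences had been seen. Each library had a gene table and a transcript table with expected counts and TPM, deposited by the authors in the column layout of RSEM and made from transcript alignments (mm10, annotation M21) per the readme files, and a transcript table in the layout of kallisto with estimated counts and TPM, deposited by the authors and made from the reads. The deposited isoform percent values were recomputed as shares of TPM. Posterior SDs of counts and TPM credibility bounds were read as scores deposited by the authors. The bounds surround a posterior mean TPM and can miss the TPM itself (Ifi203, replicate 1: 368 to 382 around 375, TPM 412), and their level is not given in the sources used here, nor are program versions, trimming, read length or strand settings.

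Symbols and classes came from GENCODE M21. The 97 spike-in rows (0.504% and 0.0967% of counts) and 26248 numeric rows (0.000106% and 0.000102%) were left out of CPM. Totals were 10395300 and 20515408 expected counts, and 19734726 and 28995544 estimated counts in the tables from the reads. Replicate ratios used genes whose mean TPM was 1 or higher, with TPM above 0 in both. Counts were rounded for TMM (edgeR 4.0.16) and DESeq2 1.42.0 factors only, and no count model was fitted. With 1 group of 2 libraries, no test between conditions exists, and values are levels, means ± SD and counts beside the same over all genes. The labels do not say that the replicates came from separate animals. Named were all members, every annotated family gene, and the highest 3 and lowest 2 of each pathway list. Ratio and word scripts were tested on simulated data.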

Additional observations from a re-analysis of the deposited data

How the results depend on the processing

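The number of members that reached 1 TPM was 9 in each library alone, by CPM and from summed isoform rows, 8 in the quantification from the reads and 10 when TPM was rescaled to protein-coding genes. Member TPM was lower in the quantification from the reads. In replicate 2 it was 59.3 against 223 for Ifi203 and 0.54 against 2.45 for Slfn4, although Slfn4 had more counts, 331 against 287. The level of 1 TPM is therefore not the same cut in both quantifications. The family difference, 1.34, was 1.19 to 1.53 in single libraries, 0.76 in CPM and 3.09 over all annotated genes of both families. The share of Ifi203, 26.5%, was 26.2% to 26.8% in single libraries and 31.5% in CPM. Without centring, 5 of 9 members were within 2-fold instead of 9. The median share of isoforms not annotated as protein-coding, 21.3%, was 20.6% to 22.0% in single libraries and 39.3% in the quantification from the reads. It was 36.5% over members with a mean TPM of at least 10. Only Ifi203, Ifi204 and Slfn5 enter there, so that median is the value of Ifi203. The median percentile, 98.0, was 97.7 to 98.3 in single libraries, 97.2 in the quantification from the reads and 97.2 when only genes at a mean of 1 TPM or higher were ranked. For single members, the level moved by more than 1 SD in the quantification from the reads for 8 of 10, and the replicate ratio changed sign there for 4 of 9 (Ifi203, Ifi209, Slfn5 and Slfn8). In the quantification from the reads, 40.1% of the 11380 genes lay below 0, against 50% in that from transcript alignments. Every member's ratio was also higher in the quantification from the reads. The cause of these shifts was not tested. Depth limits Slfn1, Slfn14 and Slfnl1. No paired analysis was possible because there is 1 group.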

Other observations

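Some family genes outside the members differed far more between the deposited quantifications than any member did. Ifi214 had 8.02 and 29.5 expected counts in the tables from transcript alignments, and 551 and 527 in those from the reads, a ratio of 68.8 in replicate 1 and 17.9 in replicate 2. Ifi202b had 31 and 52 counts, and 210 and 257 from the reads, although none of its 75-base words occurred in another gene. Slfn9 had 205 and 584 counts, and 973 and 1401 from the reads. Among 10866 genes in replicate 1, 4.84% had a ratio above 5, and among 11159 genes in replicate 2, 1.93% did. Only genes whose mean TPM was 1 or higher were counted there, so Ifi214, with a mean of 0.21 TPM, was not among them. Ifi214, Ifi202b and Slfn9 were singled out after their values were seen.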
